A study of Homo sapiens with 9 samples.

Results

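TSHR and TC2N lie on the long arm of chromosome 14, and both had higher transcript levels in T-cell leukaemia cells given an siRNA against TLX1 than in cells given a scrambled siRNA. They were taken here with 4 neighbouring genes each: CEP128, GTF2A1, STON2 and SEL1L around TSHR, and FBLN5, CATSPERB, TRIP11 and ATXN3 around TC2N. These are 10 genes of the 58096 listed, and 8 of them were among the 16072 genes with enough reads to test. The question was whether single genes or whole neighbourhoods differed. TSHR and TC2N were chosen for their rise in these same libraries, so their values in that comparison are a description and no test is drawn from them. The neighbours were chosen by position.

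The cells were ALL-SIL, an established human T-cell acute lymphoblastic leukaemia line, electroporated with siRNA s46 or s47 (each directed against TLX1) or with a scrambled siRNA, and collected at 24 h. Each of the 3 groups had 3 libraries of stranded, ribosome-depleted total RNA, and the scrambled siRNA was used at 400 nM. Whether the 3 libraries of a group are separate cultures is not in the labels: the p-values measure only the spread between them, which may be technical. Both siRNAs were compared with the same 3 scrambled libraries. The model is 1 cell line, and the libraries hold bulk RNA, in which fewer cells of a type and less RNA per cell cannot be told apart.

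TLX1 is a homeobox transcription factor that is ectopically switched on in a subset of T-cell leukaemias. TSHR is the receptor for thyrotropin, a G-protein-coupled receptor that signals mainly through Gs and cyclic AMP and is best known from thyroid follicular cells. TC2N is a protein with tandem C2 domains, folds that in other proteins often bind phospholipids. Neighbouring genes can share enhancers, a chromatin domain or a read-through transcript, which is why a change in 1 gene is commonly read beside the genes on either side of it.

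TLX1 itself (ENSG00000107807.12) was at 63.7, 87.3 and 78.6 CPM (a gene's reads per 1000000 gene reads of its library, scaled by the trimmed mean of M-values) with s46 and 63.5, 73.7 and 75.0 with s47, against 197.9, 188.0 and 171.2 with scrambled siRNA. All 6 siRNA libraries were below all 3 scrambled ones, and the log2 fold change was -1.34 ± 0.11 (SE; edgeR adjusted p 0.000394). Libraries held 21134650 to 33393740 reads on the sense strand of genes. Multimapping reads made up 14.4% of scrambled replicate 1 and 6.36% to 7.34% of each of the others, and scrambled replicate 1 correlated less with the other scrambled libraries (r of 0.964 and 0.973 across genes) than any other pair within a group did (0.982 to 0.989). The 7 T-lineage markers summed to 1296 to 1497 CPM in the siRNA libraries and 1302 to 1534 in the scrambled ones. That list includes the siRNA target TLX1, and its other members lay on both sides: CD3D averaged 382 CPM with the siRNAs and 297 with scrambled siRNA and CD3G 259 and 219, while CD7 averaged 157 and 222 and CD3E 98.1 and 133. Of 7 thyroid follicular markers, DIO1, NKX2-1 and FOXE1 had no read in any library, and all 7 summed to 0.166 to 0.934 CPM with the siRNAs and 0.573 to 1.21 with scrambled siRNA. Summed markers of B cells, myeloid cells and stroma overlapped between the groups, at 9.91 to 14.1, 0.0762 to 0.524 and 0.381 to 0.844 CPM with the siRNAs against 10.4 to 11.9, 0.257 to 0.627 and 0.438 to 1.03 with scrambled siRNA.

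The promoters of TSHR and TC2N are shown because the question sets these start sites against those of their neighbours. They are RefSeq sequences on GRCh38.p14, from 250 bases before the start site to 50 after it. TSHR is on the plus strand (chr14:80955371-80955670) and TC2N on the minus strand (chr14:91867487-91867786, the upstream of its 2 RefSeq starts). Capitals mark the RUNX core TGTGGT or its reverse complement ACCACA.

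TSHR promoter: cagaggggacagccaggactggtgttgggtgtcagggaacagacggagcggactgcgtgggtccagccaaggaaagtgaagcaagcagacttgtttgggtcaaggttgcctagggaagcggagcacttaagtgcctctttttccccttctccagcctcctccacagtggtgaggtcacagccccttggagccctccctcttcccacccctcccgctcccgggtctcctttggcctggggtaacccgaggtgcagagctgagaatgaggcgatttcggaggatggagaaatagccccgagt

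TC2N upstream promoter: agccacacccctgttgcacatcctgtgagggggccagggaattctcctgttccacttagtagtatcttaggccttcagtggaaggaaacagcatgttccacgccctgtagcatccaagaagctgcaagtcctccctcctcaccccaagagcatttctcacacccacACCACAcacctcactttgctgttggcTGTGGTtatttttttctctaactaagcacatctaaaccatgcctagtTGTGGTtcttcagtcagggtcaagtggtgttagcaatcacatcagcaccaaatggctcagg

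The upstream TC2N window held the RUNX core 3 times, beginning at -58 and -11 from the start on the gene's own strand and at -84 on the opposite strand. Of 35116 RefSeq promoters of this length, 13.1% held it at least once and 44 (0.125%) held it 3 or more times. RUNX factors bind this core and are active throughout the T lineage. The TSHR window and the downstream TC2N window held none of the 5 motifs searched on both strands, which were TGTGGT, the E-box CACGTG (in 7.26% of promoters), the homeobox core TAATTA (4.84%), GATAAG (6.36%) and the cyclic AMP response core TGACG (24.6%). Among the neighbours the RUNX core was in the CATSPERB window (at -86) and in 2 of 3 STON2 windows (at -58 and -121), the E-box in both GTF2A1 windows, the homeobox core in 1 FBLN5 window, and GATAAG and TGACG in 1 STON2 window. The motifs were picked after these sequences had been seen, so a match is a description of letters and not of binding. RefSeq promoters were found for 9 of the 10 genes, with none for ATXN3.

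A pair of short sequences from 3′ ends is shown because a 7-base word found there, GCAGTAC, and the overlapping CAGTACA had been singled out earlier in these same data as going with higher levels. Each is given 5′ to 3′ on the gene's strand (GRCh38, GENCODE 29), with the word in capitals, at chr14:91780470-91780499 on the minus strand for TC2N and chr14:80995643-80995672 on the plus strand for TSHR.

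TC2N 3′ UTR site: gatttttaaaaGCAGTACtcctagggaaat

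TSHR short-isoform 3′ UTR site: catagagggaaCAGTACAcattggggcatt

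GCAGTAC stood in 2 of the 5 annotated 3′ UTRs of TC2N, at bases 2612 to 2618 of the longest, which has 3349 bases; this site lies where TC2N and CATSPERB overlap. CAGTACA stood in 1 of the 8 annotated 3′ UTRs of TSHR, that of a short isoform, and not in the 1949-base UTR of the full-length transcripts. Neither word was in any annotated 3′ UTR of the 8 neighbours. Over 19454 genes, GCAGTAC was in the longest 3′ UTR of 5.78% and CAGTACA in that of 9.17%. Among genes with a UTR of like length the shares were 10.6% for GCAGTAC beside TC2N and 19.5% for CAGTACA beside TSHR. Because the word was chosen on these libraries, its place in TC2N is no independent evidence.

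TSHR (ENSG00000165409.16, chr14:80954989-81146302, plus strand) had 981, 843 and 849 reads with s46 and 991, 984 and 858 with s47, against 269, 260 and 240 with scrambled siRNA. In CPM this was 37.4, 29.3 and 25.6 with s46 and 37.1, 31.3 and 28.5 with s47, against 12.0, 8.76 and 8.81 with scrambled siRNA. All 6 siRNA libraries were above all 3 scrambled ones, as for 4.47% of all genes tested. TSHR was chosen for its rise, so nothing is read from this. Over both siRNAs the log2 fold change was 1.68 ± 0.17 (SE), a rise that stood at place 12 by size among the genes tested. It was 1.64 with s46 and 1.71 with s47, set against the same scrambled libraries.

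TC2N (ENSG00000165929.12, chr14:91779751-91867536, minus strand) was a low transcript, with 70, 97 and 116 reads with s46 and 100, 146 and 165 with s47, against 16, 16 and 15 with scrambled siRNA. That is 2.67, 3.37 and 3.50 CPM with s46 and 3.74, 4.64 and 5.48 with s47, against 0.716, 0.54 and 0.55 with scrambled siRNA. All 6 siRNA libraries were above all 3 scrambled ones, as were those of 4.47% of all genes tested. The log2 fold change over both siRNAs was 2.67 ± 0.26 (SE), or 6.38-fold, which ranked 1 among 16072 genes. It rests on 694 reads in the siRNA libraries and 47 in the scrambled ones. No library had a read on the strand opposite TC2N, where a count of 0 allows up to 3 reads per library.

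The comparison of s46 with s47 is the one in which the choice of these genes played no part. TSHR differed by -0.07 ± 0.18 on the log2 scale (SE; s46 minus s47), with a 95% interval of -0.46 to 0.31 that includes 0. TC2N differed by -0.54 ± 0.24 (95% interval -1.05 to -0.03; unadjusted p 0.041, edgeR adjusted p 1.0), so the lower level with s46 did not pass. None of the 8 tested genes passed, beside 0% of all genes called by edgeR in this comparison; at an unadjusted p under 0.05, 62 genes were higher with s46 and 51 lower. DESeq2 also called 0 genes.

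**Figure D1:**
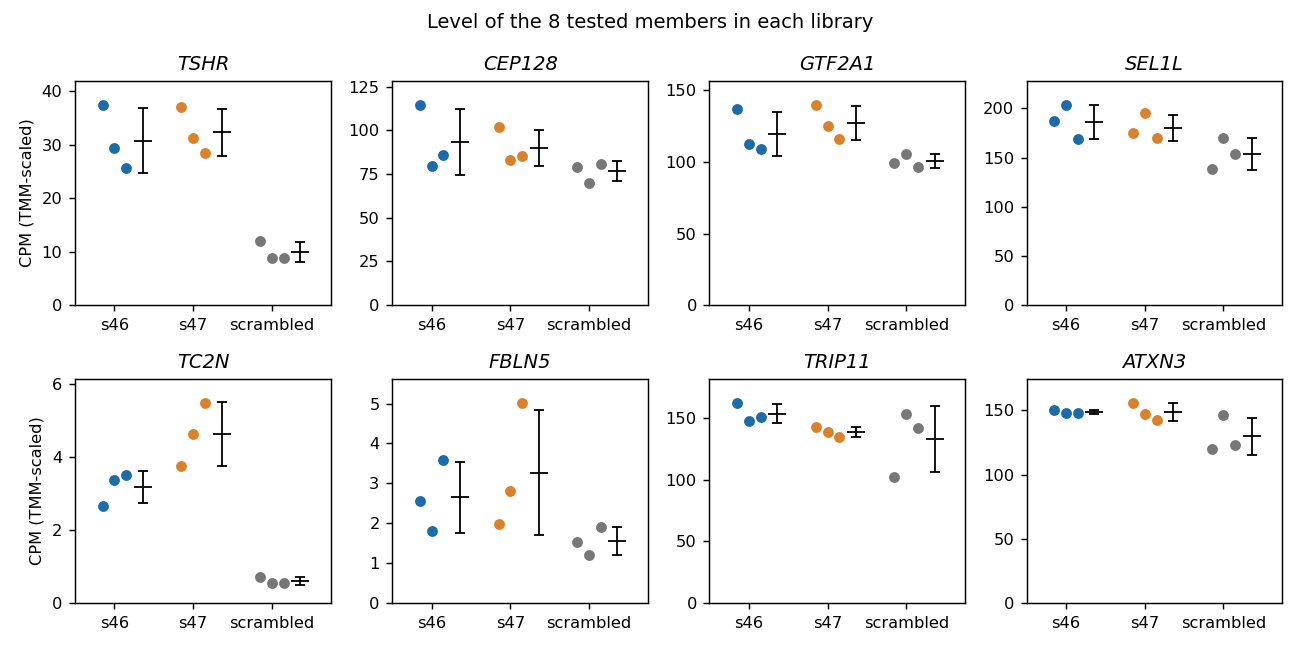
Level in CPM (y axis, from 0) of the 8 tested genes in the 3 libraries each of s46, s47 and scrambled siRNA (x axis). Points are libraries and the bar beside them is the mean ± SD (n = 3). All 6 siRNA libraries lie above all 3 scrambled ones for TSHR, TC2N and GTF2A1, as for 4.47% of all genes tested. Their siRNA libraries reach down to 25.6, 2.67 and 109.3 CPM against highest scrambled values of 12.0, 0.716 and 105.9. TSHR and TC2N were chosen for their rise.

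None of the neighbours of TSHR passed the test, and their log2 fold changes lay between 0.25 and 0.29. CEP128 encodes a protein of the subdistal appendages of the mother centriole and starts head to head with TSHR: the genes overlap by 4529 bases on opposite strands, with no exonic base shared. Its level was 114.4, 79.4 and 86.1 CPM with s46 and 101.9, 83.0 and 85.4 with s47, against 79.1, 70.1 and 80.8 with scrambled siRNA. The groups overlapped, since s46 replicate 2 was below scrambled replicate 3, and the log2 fold change was 0.26 ± 0.13 (SE; edgeR adjusted p 0.31).

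GTF2A1, which encodes the large subunits of the general transcription factor TFIIA, ends 29149 bases from the end of TSHR. It was at 136.8, 112.5 and 109.3 CPM with s46 and 139.8, 125.3 and 116.2 with s47, against 99.3, 105.9 and 96.6 with scrambled siRNA. All 6 siRNA libraries were above all 3 scrambled ones, as for 4.47% of all genes tested. TSHR and TC2N are not counted with it, since they were chosen for their rise. Of the 23 other tested genes within 1 Mb of either, GTF2A1 was the only 1 to separate in this way. The log2 fold change was 0.29 ± 0.11 (SE; unadjusted p 0.0183, edgeR adjusted p 0.224) and did not pass.

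SEL1L encodes the partner of the ubiquitin ligase HRD1 in endoplasmic-reticulum-associated degradation, and lies 325246 bases from TSHR. It was at 187.1, 203.5 and 169.2 CPM with s46 and 175.1, 195.0 and 170.0 with s47, against 138.0, 169.9 and 153.6 with scrambled siRNA. Here 5 of the 6 siRNA libraries were above all scrambled ones and the log2 fold change was 0.25 ± 0.11 (SE; unadjusted p 0.0352, edgeR adjusted p 0.257). STON2, the endocytic adaptor stonin 2, lies between GTF2A1 and SEL1L and had 0 reads in the 6 siRNA libraries and 1 read in the 3 scrambled ones. It was not testable, and a count of 0 allows up to 3 reads per library.

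Summed over the 4 neighbours of TSHR, the level was 438, 395 and 365 CPM with s46 and 417, 403 and 372 with s47, against 316, 346 and 331 with scrambled siRNA. Sums of other genes were not computed, so nothing is read from how these sums separate. STON2 added at most 1 read to them. The upper ends of the 95% intervals of the neighbours' log2 fold changes were 0.54 for CEP128, 0.53 for GTF2A1 and 0.48 for SEL1L. TSHR was chosen for its rise, so its interval is not set against these. The difference between TSHR and its neighbours was not tested.

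Around TC2N the closest neighbour is FBLN5, which encodes fibulin-5, a secreted protein of elastic fibres. It is on the same strand and ends 1875 bases from the upstream annotated start of TC2N. The downstream RefSeq start, at 91836455, lies further away, and which start these cells use was not tested. It was at 2.55, 1.81 and 3.59 CPM with s46 and 1.98, 2.80 and 5.02 with s47, against 1.52, 1.21 and 1.91 with scrambled siRNA. Of the siRNA libraries 5 of 6 were above all scrambled ones, with s46 replicate 2 below scrambled replicate 3. The log2 fold change was 0.93 ± 0.33 (SE; 95% interval 0.21 to 1.65; unadjusted p 0.015, edgeR adjusted p 0.215). It did not pass with the filter on low counts. Without that filter it passed (0.95, edgeR adjusted p 0.0344), in a fit that called 876 genes in all against 91 with the filter.

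CATSPERB, a subunit of the sperm cation channel, overlaps the end of TC2N on the same strand and shares 132 exonic bases with it. It had 5, 2 and 8 reads with s46 and 5, 1 and 2 with s47, against 0, 0 and 2 with scrambled siRNA, too few to test. All 6 siRNA libraries held a read and 1 of 3 scrambled libraries did. Reads in the shared bases cannot be given to 1 of these genes by strand, so both counts are uncertain there.

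TRIP11, a golgin that tethers vesicles at the Golgi, was at 162.3, 147.1 and 150.9 CPM with s46 and 142.9, 139.0 and 134.9 with s47, against 102.4, 153.4 and 142.1 with scrambled siRNA. Only scrambled replicate 1 stood below the siRNA libraries. The log2 fold change was 0.14 ± 0.12 (SE; edgeR adjusted p 0.556), and without scrambled replicate 1 it was -0.02. ATXN3 encodes the Josephin-domain deubiquitinase whose polyglutamine stretch is expanded in Machado-Joseph disease. It was at 150.4, 147.6 and 147.6 CPM with s46 and 156.0, 147.3 and 142.3 with s47, against 120.2, 146.3 and 123.2 with scrambled siRNA. Scrambled replicate 2 lay within the siRNA range, and the log2 fold change was 0.19 ± 0.10 (SE; edgeR adjusted p 0.314).

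Summed over the 4 neighbours of TC2N, the level was 315, 297 and 302 CPM with s46 and 301, 289 and 282 with s47, against 224, 301 and 267 with scrambled siRNA. The groups overlapped. The upper end of the interval for FBLN5 was 1.65. TC2N too was chosen for its rise, so its interval is not set against this one. The difference between TC2N and its neighbours was not tested.

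**Figure D2:**
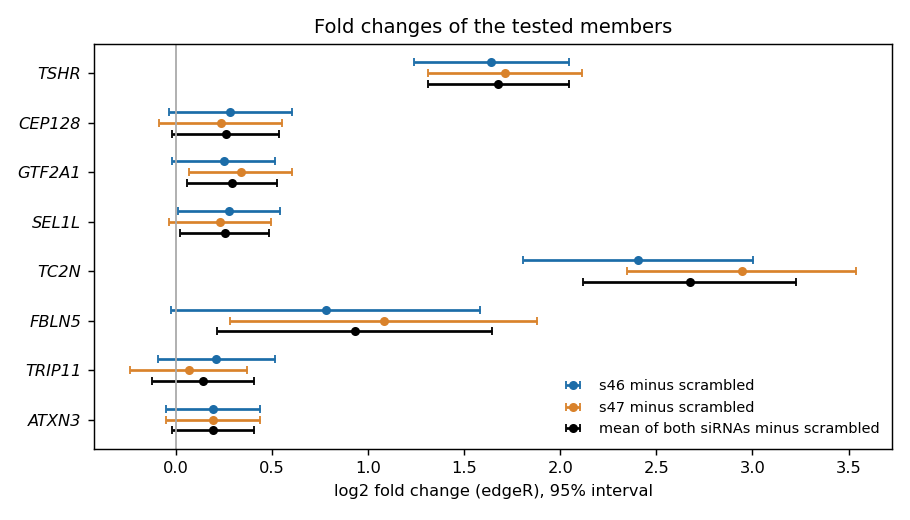
Log2 fold change (x axis) of each tested gene with its 95% interval, for s46, s47 and the mean of both against the same 3 scrambled libraries; genes run down the y axis, the TSHR group above the TC2N group. TSHR (1.68) and TC2N (2.67) were chosen for their rise, and the 6 neighbours, chosen by position, lie between 0.14 and 0.93.

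Of the 6 neighbours tested, none passed for both siRNAs minus scrambled, where 0.566% of all genes were called, with 0.411% of all genes higher. At an unadjusted edgeR p under 0.05, GTF2A1, SEL1L and FBLN5 were higher, beside 7.27% of all genes tested. TSHR and TC2N are the 2 of 8 called, by the contrast that chose them. With s46 alone and with s47 alone TSHR and TC2N were again the members called, where 0.174% and 0.33% of all genes were; these contrasts also entered their choice, so nothing is read from that. With the replicate number as a block, the calls over all genes went to 222 for both siRNAs (91 without), 74 for s46 (28 without) and 125 for s47 (53 without), and the members called were the same in number. The neighbours' log2 fold changes were 0.19 (ATXN3) to 0.78 (FBLN5) with s46 and 0.07 (TRIP11) to 1.08 (FBLN5) with s47, and GTF2A1 was at 0.25 and 0.34. All 6 neighbours had a log2 fold change above 0, with a median of 0.26, while 7475 of 16072 genes were above 0 and their median was -0.03. Without scrambled replicate 1, TRIP11 turned to the other side of 0 and 5 of 6 were above it.

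The wider neighbourhoods were taken as all annotated genes within 1 Mb of either end. The TSHR window held 26 genes, 9 of them tested, and the TC2N window 34 genes, 16 of them tested. Other than TSHR and TC2N themselves, 0 of 23 tested genes were called by edgeR; at an unadjusted p under 0.05, 4 were higher and 2 lower, beside 7.27% higher and 10.5% lower over all genes tested. DESeq2 called none of the 23 either. Without scrambled replicate 2, CPSF2, a cleavage and polyadenylation factor (0.42, edgeR adjusted p 0.0379), and RIN3 (-1.25, edgeR adjusted p 0.0298) passed. That fit called 1650 genes in all, against 91 with every library, so nothing is read from these calls. RIN3 ran from 16.3 to 58.4 CPM with scrambled siRNA and from 14.1 to 20.5 with the siRNAs. Without TSHR, the median log2 fold change of its window was 0.28, with 6 genes above 0 and 2 below. Without TC2N, that of its window was 0.14, with 8 above and 7 below, and a range of -0.94 (RIN3, an exchange factor of the Rab5 family) to 0.93 (FBLN5).

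DIO2, the deiodinase that activates thyroid hormone, lies in the TSHR window and was at 0.266 to 1.03 CPM in the siRNA libraries and 0.135 to 0.716 in the scrambled ones. The ranges overlapped, and its log2 fold change of 0.87 ± 0.53 (SE, edgeR adjusted p 0.393) did not pass. Its 95% interval was wide, at -0.28 to 2.02. TSHR was chosen for its rise, so its interval is not set against that of DIO2. Across chromosome 14, 565 genes were tested and 3 were called, all higher: TSHR, TC2N and SUPT16H, a subunit of the histone chaperone FACT (log2 fold change 0.58, edgeR adjusted p 0.0317). That share is near the 0.566% of all genes tested, and 2 of the 3 were chosen for their rise. SUPT16H was named because it was the only other call on the chromosome. The median over chromosome 14 was -0.01.

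**Figure D3:**
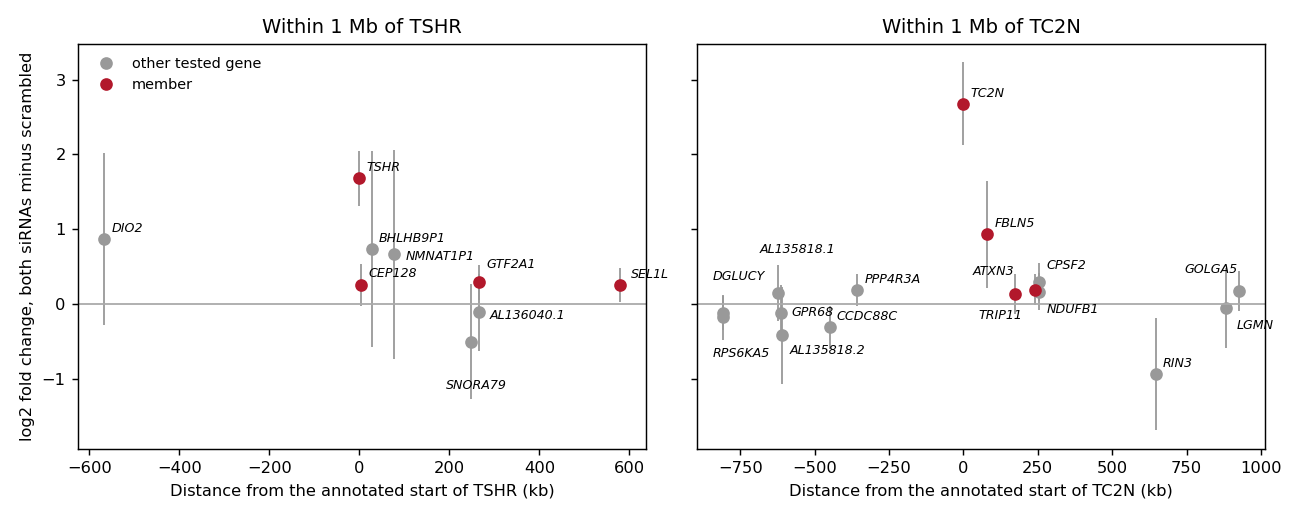
Log2 fold change of both siRNAs against scrambled siRNA (y axis, with 95% intervals) of every tested gene within 1 Mb of TSHR (left) and TC2N (right), against the distance in kb between annotated starts (x axis, negative towards the short arm). Red points are the named members and grey points the other genes; apart from TSHR at 1.68 and TC2N at 2.67, no point in either window passed the threshold.

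Genes inside or across the members were examined in the same files. There were 15 of them, 4 of which were tested, and the other 11 had at most 7 reads in any library. AC007262.2, an antisense RNA across 134204 bases of TSHR that shares no exonic base with it, was not among the counted genes. BHLHB9P1 and NMNAT1P1 are processed pseudogenes within introns of TSHR, on its strand. BHLHB9P1 had 54, 20 and 20 reads with s46 and 37, 42 and 17 with s47, against 18, 3 and 30 with scrambled siRNA. NMNAT1P1 had 31, 16 and 7 reads with s46 and 24, 16 and 10 with s47, against 15, 2 and 12 with scrambled siRNA. In both the groups overlapped, and the log2 fold changes, 0.73 ± 0.60 and 0.66 ± 0.65 (SE), did not pass. Their 95% intervals were wide, with upper ends of 2.04 and 2.06, and included 0. Reads of these pseudogenes and reads from unspliced TSHR transcripts cannot be told apart by strand. SNORA79, a small nucleolar RNA in an intron of GTF2A1, had a log2 fold change of -0.50, and AL136040.1, an antisense RNA that shares 160 exonic bases with GTF2A1, one of -0.11. Neither passed.

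The opposite-strand column gives reads against each gene's direction, which made up 5.22% to 6.32% of stranded gene reads. Opposite CEP128, which is the strand of TSHR, there were 76, 49 and 81 reads with s46 and 90, 78 and 58 with s47, against 38, 24 and 28 with scrambled siRNA. These reads are not scaled for depth. The library of s46 replicate 2, with 49, held 29106994 sense-strand gene reads, and that of scrambled replicate 1, with 38, held 21134650. Per sense-strand gene read, s46 replicate 2 was therefore below scrambled replicate 1. Whether the groups separate thus depends on how depth is scaled. The share of genes whose groups separate on this strand was not computed. Opposite CEP128 the log2 fold change was 1.23 ± 0.29 (SE; unadjusted p 0.000497, edgeR adjusted p 0.275) and did not pass. Without a filter on low counts it passed (edgeR adjusted p 0.0154), but the calls over all genes on this strand were not counted in that setting.

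Opposite TSHR, the strand of CEP128 and of AC007262.2, there were 60, 25 and 26 reads with s46 and 46, 35 and 24 with s47, against 26, 6 and 27 with scrambled siRNA. Those groups overlapped. Of the 6 members with enough opposite-strand reads to test, none was called, beside a background of 0.0201% of 9964 genes.

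**Figure D4:**
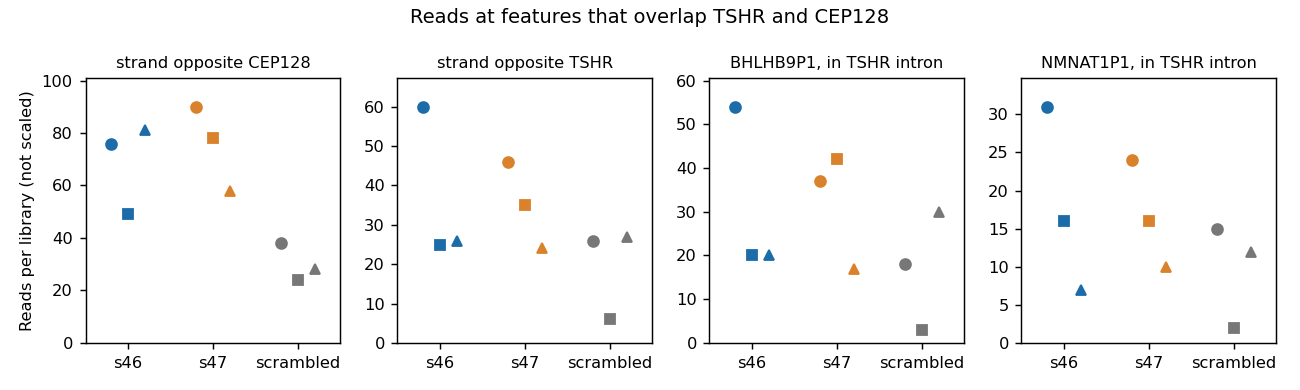
Reads per library, not scaled (y axis, from 0), on the strand opposite CEP128, on the strand opposite TSHR, and at the TSHR-intron pseudogenes BHLHB9P1 and NMNAT1P1, in the s46, s47 and scrambled groups (x axis; circles, squares and triangles are replicates 1, 2 and 3). Opposite CEP128 the values, before any scaling for depth, are 49 to 90 with the siRNAs and 24 to 38 with scrambled siRNA. Per sense-strand gene read these groups overlap, so no separation is read from the raw values. The groups overlap in the other 3 panels.

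Levels were also compared between genes per length, in RPKM, which is CPM divided by the kilobases of annotated exon. With scrambled siRNA the order was SEL1L at 16.1, GTF2A1 at 14.8, ATXN3 at 13.4, TRIP11 at 12.8 and CEP128 at 8.16 RPKM. TSHR at 0.996, FBLN5 at 0.311 and TC2N at 0.0979 RPKM came well below these, and CATSPERB (0.00434) and STON2 (0.00157) were at the limit of the counts. With the siRNAs TSHR was at 3.18 RPKM, TC2N at 0.634 and FBLN5 at 0.595, so TSHR remained below the 5 highly transcribed neighbours, while TC2N and FBLN5 stood side by side.

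Over the 9 libraries, which share the group difference, the log2 CPM of TSHR and TC2N went together (Pearson r = 0.94 as a description). The genes most like TSHR among 11397 were REST, a transcriptional repressor (0.969), SEC24A, a COPII coat subunit (0.969), PTBP3, an RNA-binding protein (0.965), ALYREF, an mRNA export adaptor (0.965), and PAFAH2, an acetylhydrolase (0.964). For TC2N they were MZB1 (0.978), the interleukin-7 receptor chain IL7R (0.977), the E2F partner TFDP2 (0.967), LBH (0.960) and the epigenetic regulator UHRF1 (0.959). None of these 10 genes lies on chromosome 14. That chromosome held only 565 of the 16072 genes tested, so nothing is read from this. Of the neighbours, GTF2A1 took place 172 in likeness to TSHR (0.85) and CEP128 place 652 (0.71), and FBLN5 took place 403 in likeness to TC2N (0.75).

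Gene lists drawn up for the roles of the members held no called gene for both siRNAs minus scrambled, beside the 0.566% background. None of the 6 ligands and sister receptors of TSHR had enough reads to test, and TSHB, CGA, GPHA2 and GPHB5, the subunits of its hormone ligands, had no read in any library. Of 27 genes of G-protein and cyclic AMP signalling, 22 were tested, with a median log2 fold change of -0.10. Among them GNAS, the Gs alpha subunit, averaged 526 CPM with s46 and 524 with s47, against 584 with scrambled siRNA (log2 fold change -0.15 ± 0.13 SE; edgeR adjusted p 0.532). GNA13 had a value of 0.36 ± 0.11 (SE; edgeR adjusted p 0.168) and PRKAR1A, a regulatory subunit of protein kinase A, one of 0.22 ± 0.11 (SE; edgeR adjusted p 0.312).

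Of 27 other proteins with tandem C2 domains 9 were tested, with a median of -0.18. The extended synaptotagmin ESYT2 was at 0.04 ± 0.10, ESYT1 at -0.23 ± 0.10 and the synaptotagmin-like SYTL1 at -0.64 ± 0.20 (log2 fold change, SE). For endoplasmic-reticulum-associated degradation, the pathway of SEL1L, 14 of 15 were tested with a median of 0.03, 9 above 0 and 5 below. The segregase VCP was at 0.01 ± 0.11. For TFIIA and its TFIID platform 7 of 8 were tested with a median of 0.12, 5 above 0 and 2 below. TAF1, the largest TFIID subunit, was among those below, at -0.15 ± 0.10 (edgeR adjusted p 0.431). The subdistal appendage list gave 7 of 8 tested and a median of 0.04, the AP-2 endocytosis list 10 of 10 and -0.04, and the golgins 11 of 11 and 0.10, with GOLGA4 at 0.58 ± 0.16 (edgeR adjusted p 0.134). Fibulins and elastic-fibre genes had 3 of 10 tested (median -0.01), the CatSper channel 4 of 9 (median -0.47) and the other Josephin deubiquitinases 2 of 3 (median -0.25).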

How the data were processed

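Stranded total RNA from 9 ALL-SIL libraries (3 each with s46, s47 and scrambled siRNA) was measured. Deposited values are raw, not normalized, gene-level read counts by the authors, with the build GRCh38 named in the submitters' processing notes. Which aligner, counter and annotation were used is not given in the sources used here. The sense-strand column was used, and the opposite-strand column on its own. The first 4 lines name no gene (multimapping reads were 6.36% to 14.4%) and were left out. Symbols, exons and 3′ UTRs came from GENCODE 29 by gene ID, and promoters from RefSeq (GRCh38.p14). Genes passing filterByExpr (minimum count 10) got TMM factors, and edgeR 4.0.16 under R 4.3.3 fitted its robust quasi-likelihood model to the 9 libraries together, with Benjamini-Hochberg adjustment over 16072 genes at 0.05. Standard errors came from the F statistic. The labels do not say what a replicate number shares. Deviations of same-numbered libraries correlated at 0.20 to 0.43 for s46 with s47 and with scrambled (all 6 pairs) and at 0.21, -0.02 and 0.29 for s47 with scrambled, against -0.31 to 0.17 for differently numbered ones. The fit has no replicate term, and values with the number as a block are given beside the counts they move. The fit was tested on simulated data. Alternatives used DESeq2 1.42.0 and limma 3.58.1. Named genes were TLX1, the members, called or overlapping genes nearby, the 5 most alike (log2 CPM of at least 1) and up to 3 per list by level. The members and lists were chosen with earlier results of these data known. Intervals cover the spread between these libraries only.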

Additional observations from a re-analysis of the deposited data

How the results depend on the processing

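Over the alternatives, TSHR had log2 fold changes of 1.60 to 1.84 and TC2N of 2.61 to 2.93 for both siRNAs minus scrambled; both were chosen for their rise in these libraries, so their calls there are no sign of stability. The number of members called was 2 for both siRNAs, s46 and s47 and 0 for s46 minus s47, except 3 for both siRNAs and 3 for s47 without a filter on low counts, where FBLN5 was added. Called genes of the neighbourhoods numbered 2 to 4 when a library was left out: without scrambled replicate 2, CPSF2 (0.42, edgeR adjusted p 0.0379) and RIN3 (-1.25, edgeR adjusted p 0.0298) were added, and without a filter on low counts FBLN5 was (3 in all); in every other setting, DESeq2 included, TSHR and TC2N were the 2 called. Without a filter 1 member, CEP128, was called on the opposite strand, and FBLN5 also for s47 (1.11, edgeR adjusted p 0.0404). The sign turned for TRIP11, to -0.0166 without scrambled replicate 1 (range over left-out libraries -0.0166 to 0.26) and -0.0481 without all number-1 libraries. It turned for TSHR in s46 minus s47, to 0.0428 without s46 replicate 3 and 0.0418 without s47 replicate 1 (range -0.24 to 0.0428), and for FBLN5 in s46 minus s47, to 0.148 without s47 replicate 3 (range -0.589 to 0.148). The cause was not tested.

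The count over all genes for both siRNAs, 91, was 458 with DESeq2, 876 without a filter, 1650 without scrambled replicate 2, 22 without scrambled replicate 3 and 41 to 60 without 1 siRNA library; 3 genes were called for s46 minus s47 without a filter. For s46 (28) and s47 (53) the counts were 196 and 203 with DESeq2, 384 and 432 without a filter, 6 and 8 in fits of only the groups compared, 14 for s46 with library totals, and 33 for s47 without the number-1 libraries. With 1 library left out they ran from 4 to 225 and from 4 to 275. With the replicate number as a block, 222 genes were called for both siRNAs, 74 for s46 and 125 for s47, and 2 members in each, and no call of a member changed. Depth limits STON2, CATSPERB and, with 47 scrambled reads, TC2N.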
